A study of Homo sapiens with 11 samples.

Results

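The high mobility group (HMG) proteins HMGA, HMGB and HMGN are small, abundant chromatin proteins, and their 10 genes HMGA1, HMGA2, HMGB1, HMGB2, HMGB3, HMGN1, HMGN2, HMGN3, HMGN4 and HMGN5 were followed by their symbols in a table of 61464 rows. All 10 were found and all 10 passed the filter on low counts, as did 17963 rows in all. The cells were HCT116, an established line of human colorectal carcinoma that the labels call epithelial and ras mutant, and every group was taken after 48 h. The control group was kept in the solvent DMSO (3 libraries), and the treated groups in the Ganoderma triterpenoid extracts GTEA1 or GTEA7 (4 libraries each). Ganoderma is a genus of bracket fungi, the extracts are mixtures, and the sources used here give neither dose nor composition.

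HMG proteins bind DNA or nucleosomes with little sequence preference and change how compact chromatin is. HMGA proteins hold AT-hooks that bind the minor groove of AT-rich DNA; they are high in embryos and in many carcinomas, colorectal ones included. HMGB proteins hold paired HMG boxes that bend DNA, and HMGB1 released from cells also acts as an alarm signal for immune cells. HMGN proteins bind the nucleosome core itself and compete with linker histone H1.

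DMSO libraries held 13866350 to 17431515 counts, GTEA1 libraries 13742326 to 16433111, and GTEA7 libraries 14955685 to 19304211. The 10 genes together took 0.269% to 0.275% of them in DMSO, 0.536% to 0.549% in GTEA1 and 0.282% to 0.290% in GTEA7. HMGA1 alone held 11050 to 13632 counts per library in DMSO and 56083 to 70242 in GTEA1, where 6 of the 10 genes were lower. Levels of 1 gene are given as CPM, the depth-normalised read count, after scaling each library for its size and its TMM factor (a correction for composition). A value after ± is the SD for a level (n = 3 for DMSO, n = 4 for each extract) and the standard error for a log2 fold change. Differences were tested with edgeR's quasi-likelihood test, with p-values adjusted over all 17963 genes, and a gene passed at an adjusted p under 0.05. Nothing in the labels says that replicates were separate cultures, so the p-values measure the spread between these libraries, which may be technical. Of 8 epithelial markers, 6 (EPCAM, KRT8, KRT18, KRT19, CDH1 and CLDN7) had at least 1 CPM in every group, and their list summed to 2237 to 2387 CPM in DMSO, 2776 to 2905 in GTEA1 and 2238 to 2336 in GTEA7. None of 6 immune markers reached 1 CPM in any group, and CD3E had 0 counts in all libraries. Of 4 endothelial markers VWF and KDR did, with sums of at most 4.27 CPM, and of 6 fibroblast markers COL1A1 did in every group and COL3A1 in DMSO and GTEA7, with sums of 36.7 to 55.1 CPM. In bulk RNA a change in the share of cells and a change in RNA per cell cannot be told apart.

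Promoter windows, from 250 bases before to 50 after a start site, were found in the RefSeq table (GRCh38.p14) for 8 of the 10 genes, 12 windows in all, and not for HMGA2 and HMGB2. The first windows of HMGA1, HMGB1 and HMGB3 are shown, because HMGA1 had the largest rise of the 10 genes and HMGB3 and HMGB1 the largest falls after GTEA1. Capitals mark every match, on either strand and with overlaps, to the 8 motifs searched: CACGTG (E-box), TGANTCA (AP-1), TGACNNNGC (core of the antioxidant response element), TGATGNAA (ATF4), CCAAT (NF-Y), GGGCGG (SP1 and KLF factors), TTTNNCGC (E2F) and TTTGAA (cell cycle homology region).
HMGA1, chr6:34236623-34236922, plus strand: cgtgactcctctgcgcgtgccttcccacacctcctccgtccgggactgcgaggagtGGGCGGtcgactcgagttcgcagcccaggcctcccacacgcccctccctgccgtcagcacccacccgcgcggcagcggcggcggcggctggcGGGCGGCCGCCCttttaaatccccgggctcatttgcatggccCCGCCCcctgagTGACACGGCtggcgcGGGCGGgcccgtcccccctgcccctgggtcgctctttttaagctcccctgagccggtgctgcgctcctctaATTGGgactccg
HMGB1, chr13:30465887-30466186, minus strand: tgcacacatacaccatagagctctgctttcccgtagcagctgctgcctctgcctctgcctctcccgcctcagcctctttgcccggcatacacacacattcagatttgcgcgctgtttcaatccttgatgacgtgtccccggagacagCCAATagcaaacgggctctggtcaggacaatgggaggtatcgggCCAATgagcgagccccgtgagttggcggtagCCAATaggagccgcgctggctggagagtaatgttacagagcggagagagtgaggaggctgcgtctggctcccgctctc
HMGB3, chrX:150983085-150983384, plus strand: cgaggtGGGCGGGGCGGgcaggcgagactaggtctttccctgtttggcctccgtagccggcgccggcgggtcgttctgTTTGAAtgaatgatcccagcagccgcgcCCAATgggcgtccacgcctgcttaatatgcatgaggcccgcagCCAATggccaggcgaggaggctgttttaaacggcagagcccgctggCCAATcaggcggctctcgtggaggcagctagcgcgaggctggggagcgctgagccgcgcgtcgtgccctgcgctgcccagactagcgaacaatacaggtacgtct
The HMGA1 window shown held GGGCGG 5 times, CCAAT once on the minus strand, and TGACNNNGC once on the plus strand, starting 48 bases before the start site. Of 35116 windows of this length in the table, 45% held GGGCGG and 13.3% held TGACNNNGC. The windows shown for HMGB1 and HMGB3 each held CCAAT 3 times on the plus strand, starting 103, 59 and 28 bases before the start site in HMGB1 and 144, 101 and 55 bases before it in HMGB3. CCAAT was in 34.6% of all windows, and 3.26% held it at least 3 times. The HMGB3 window shown also held TTTGAA, found in 15.2% of windows, and GGGCGG at 2 overlapping positions. Of the windows not shown, window 2 of HMGB1 held CCAAT once, on the minus strand, and TTTGAA. Window 3 of HMGB1 and window 2 of HMGB3 held no CCAAT. Over all 12 windows CCAAT was in 8 and GGGCGG in 8, CACGTG was in that of HMGN2 (7.26% of all windows), TGATGNAA in that of HMGN5 (3.62%), and TGANTCA and TTTNNCGC, in 7.71% and 6.89% of all windows, were in none. A match is a run of letters and does not show that a factor was bound.

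After GTEA1 every one of the 10 genes passed the test, 4 higher and 6 lower, against 71.8% of all genes tested (35.6% higher and 36.2% lower). With library size as the only scaling, 8 of the 10 passed, 2 higher and 6 lower. Under that scaling the median over all genes moved from -0.008 to -0.167 (log2), and 4828 genes were then higher and 8179 lower, in place of 6390 and 6505. The median of the 10 genes was -0.85 with TMM. By family, both HMGA genes rose, all 3 HMGB genes fell, and of the HMGN genes 3 fell and 2 were slightly higher. For 6 of the 10 the change was at least 2-fold, as it was for 21.0% of all genes. In all 10 genes the GTEA1 libraries lay on 1 side of the DMSO libraries, which held for 68.7% of all genes.

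**Figure D1:**
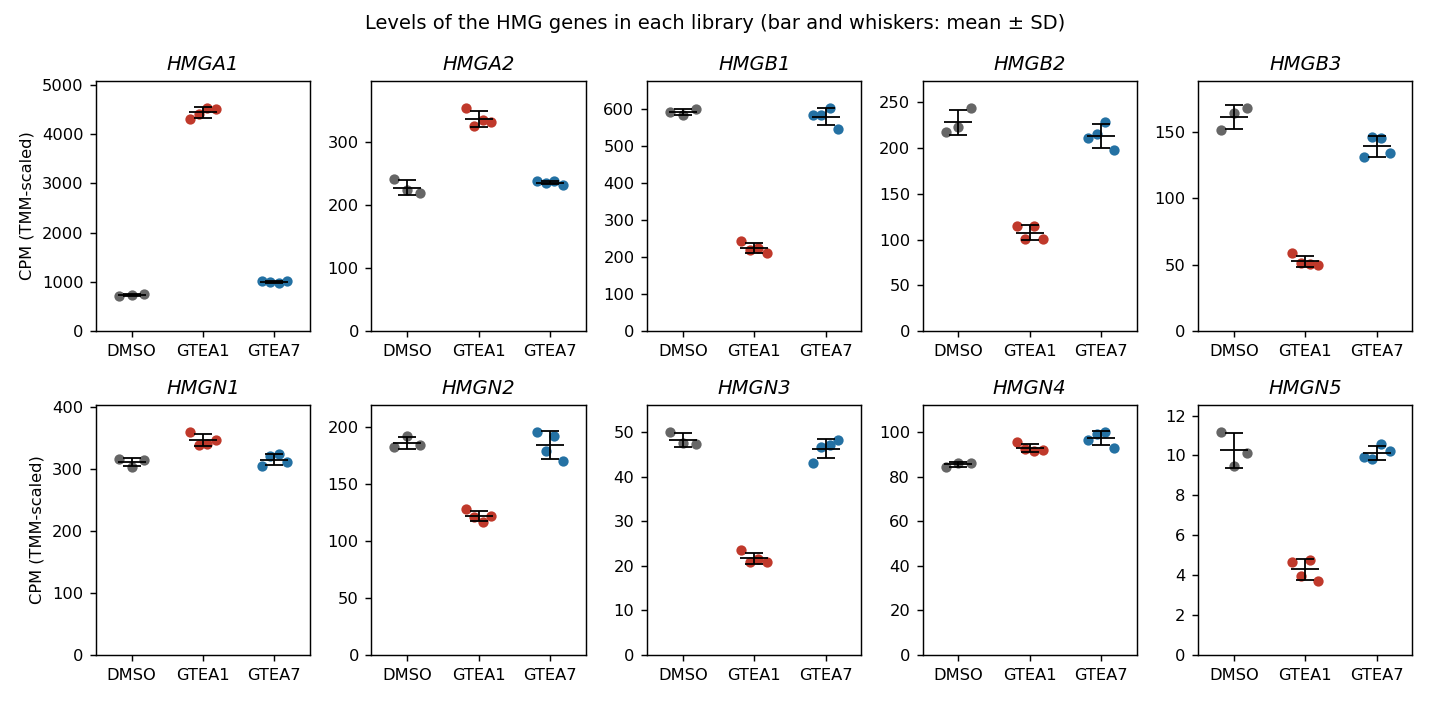
Level of each HMG gene (CPM, TMM-scaled, linear axis from 0, 1 panel per gene) in the 3 DMSO, 4 GTEA1 and 4 GTEA7 libraries; points are libraries, bar and whiskers the mean ± SD. HMGA1 rose from 740.2 to 4438 CPM with GTEA1, while the HMGB genes and HMGN2, HMGN3 and HMGN5 fell. With GTEA7 the genes that fell overlapped DMSO, except HMGB3, which lay below every DMSO library.

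HMGA1 (ENSG00000137309), the AT-hook protein that organizes enhancer complexes on DNA, was at 722, 736 and 763 CPM in DMSO replicates 1 to 3. In GTEA1 replicates 1 to 4 it was at 4302, 4408, 4531 and 4512 CPM, and in GTEA7 replicates 1 to 4 at 1011, 1002, 979 and 1027 CPM. The 3 groups did not overlap, with DMSO lowest, GTEA7 above it and GTEA1 far above both. The rise with GTEA1 was 6.00-fold (log2 fold change 2.58 ± 0.04, edgeR adjusted p = 2.1e-46), larger than that of 99.0% of all genes tested. The rise with GTEA7 was 1.36-fold (0.44 ± 0.04, adjusted p = 2.6e-14), larger than that of 96.3% of genes.

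HMGA2 (ENSG00000149948), the other AT-hook protein, is best known as a target of let-7 microRNAs. Its levels were 242, 224 and 219 CPM in DMSO, 355, 326, 335 and 332 in GTEA1, and 239, 235, 238 and 233 in GTEA7. Every GTEA1 library was above every other library, and the GTEA7 libraries lay within the range of DMSO. The change was 1.47-fold with GTEA1 (0.56 ± 0.04, adjusted p = 3.3e-19). With GTEA7 the difference was 0.05 ± 0.04 (adjusted p = 0.39), with a 95% interval of -0.024 to 0.119. In the GENCODE v29 annotation HMGA2 shares 384 exon bases with HMGA2-AS1 on the opposite strand. The sources used here do not give the strand setting of the counts, so reads of this stretch cannot be assigned to either gene. HMGA2-AS1 was at 12.2 ± 0.93 CPM in DMSO, 11.3 ± 1.6 in GTEA1 and 12.4 ± 1.5 in GTEA7 and did not pass (adjusted p = 0.29 and 0.92).

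HMGB1 (ENSG00000189403), the DNA-bending protein that doubles as an alarm signal, was at 591, 583 and 598 CPM in DMSO. It was at 244, 218, 225 and 212 CPM in GTEA1, and at 584, 583, 602 and 545 in GTEA7. All GTEA1 libraries were below all others, and GTEA7 overlapped DMSO. HMGB1 was 2.63-fold lower with GTEA1 (-1.39 ± 0.04, adjusted p = 4.6e-34). With GTEA7 it was at -0.03 ± 0.04 (adjusted p = 0.63), with a 95% interval of -0.102 to 0.043.

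HMGB2 (ENSG00000164104), the family member best known from dividing cells, was at 218, 223 and 244 CPM in DMSO and at 115, 100.4, 115 and 100.4 in GTEA1. Its GTEA7 libraries were at 211, 215, 229 and 198 CPM, and they overlapped DMSO. The GTEA1 libraries stood apart from both groups, with a fall of 2.12-fold (-1.08 ± 0.06, adjusted p = 3.6e-12). GTEA7 gave -0.10 ± 0.05 (adjusted p = 0.23, and adjusted p = 0.027 at -0.147 with library size only). HMGB3 (ENSG00000029993), an HMGB protein of embryonic and stem cells, was at 151, 164 and 168 CPM in DMSO. It had the largest fall of the 10 genes, to 58.9, 51.1, 50.4 and 50.0 CPM in GTEA1, 3.06-fold lower (-1.62 ± 0.05, adjusted p = 1.4e-26). In GTEA7 it was at 131, 146, 145 and 134 CPM, below every DMSO library and above every GTEA1 library (-0.21 ± 0.04 against DMSO, adjusted p = 5.3e-04). It was the only HMGB gene that passed with GTEA7.

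Among the HMGN genes the falls with GTEA1 were in HMGN2, HMGN3 and HMGN5. HMGN2 (ENSG00000198830), an abundant nucleosome-binding protein, lay between 182 and 192 CPM in DMSO, between 117 and 128 in GTEA1, and between 169.9 and 196 in GTEA7. It was 1.53-fold lower with GTEA1 (-0.61 ± 0.04, adjusted p = 2.0e-18), and GTEA7 overlapped DMSO (-0.02 ± 0.04, adjusted p = 0.84). HMGN3 (ENSG00000118418) was at 50.2, 47.6 and 47.3 CPM in DMSO and at 23.5, 20.9, 21.5 and 20.9 in GTEA1. These groups did not overlap, and HMGN3 was 2.23-fold lower with GTEA1 (-1.16 ± 0.06, adjusted p = 6.7e-24). GTEA7 libraries were at 43.2, 46.8, 47.1 and 48.4 CPM and overlapped DMSO (-0.06 ± 0.05, adjusted p = 0.42). HMGN3-AS1, which shares 193 exon bases with HMGN3 on the opposite strand, went from 1.16 ± 0.14 to 0.574 ± 0.12 CPM with GTEA1 (edgeR adjusted p = 0.0031). Since the strand setting is not given, the split of reads between the pair is uncertain. Over all libraries HMGN3-AS1 held 152 counts and HMGN3 held 6868.

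HMGN5 (ENSG00000198157), a family member with a long acidic tail, had the fewest reads of the 10, with 147 to 191 per DMSO library, 54 to 73 per GTEA1 library and 156 to 192 per GTEA7 library. Its levels were 11.2, 9.45 and 10.1 CPM in DMSO, 4.68, 3.97, 4.78 and 3.73 in GTEA1, and 9.90, 9.83, 10.6 and 10.2 in GTEA7. It was 2.39-fold lower with GTEA1 and had the largest standard error of the 10 genes (-1.26 ± 0.11, adjusted p = 5.4e-14). With GTEA7 it was at -0.02 ± 0.10 (adjusted p = 0.92), and the 95% interval of -0.206 to 0.168 was the widest of the 10 genes.

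HMGN1 and HMGN4 moved little. HMGN1 (ENSG00000205581), a nucleosome-binding protein encoded on chromosome 21, lay between 304 and 316 CPM in DMSO, between 339 and 361 in GTEA1, and between 305 and 325 in GTEA7. Its GTEA1 libraries were all above DMSO (0.15 ± 0.03, adjusted p = 9.1e-05), but with library size only the value was -0.004 and did not pass (adjusted p = 0.93). HMGN4 (ENSG00000182952), which is encoded by a gene that arose as a retrocopy of HMGN2, was at 84.4, 86.0 and 86.2 CPM in DMSO. It was at 95.7, 92.6, 91.7 and 92.0 CPM in GTEA1 and at 96.6, 99.3, 100.3 and 93.0 in GTEA7. Both extracts lay above DMSO and overlapped each other. Its value with GTEA1 was 0.12 ± 0.04 (adjusted p = 0.0073) and turned to -0.039 with library size only (adjusted p = 0.39). With GTEA7 it was 1.14-fold higher (0.19 ± 0.04, adjusted p = 3.0e-04), and this call held with library size only.

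With GTEA7, 3 of the 10 genes passed against DMSO, HMGA1 and HMGN4 higher and HMGB3 lower, beside 22.5% of all genes tested (12.0% higher and 10.4% lower). In the same 3 genes the libraries did not overlap, as in 30.5% of all genes. None of the 10 changed by 2-fold, which 0.579% of all genes did. The median of the 10 genes was -0.02, beside -0.009 for all genes. With library size only 4 passed, 2 higher and 2 lower, the fourth being HMGB2, while over all genes 1255 were then higher and 2954 lower in place of 2159 and 1877. The 7 genes that did not pass had 95% intervals that lay, over all 7, between -0.206 and 0.168. Both extracts were set against the same 3 DMSO libraries, so their changes are not independent of each other.

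**Figure D2:**
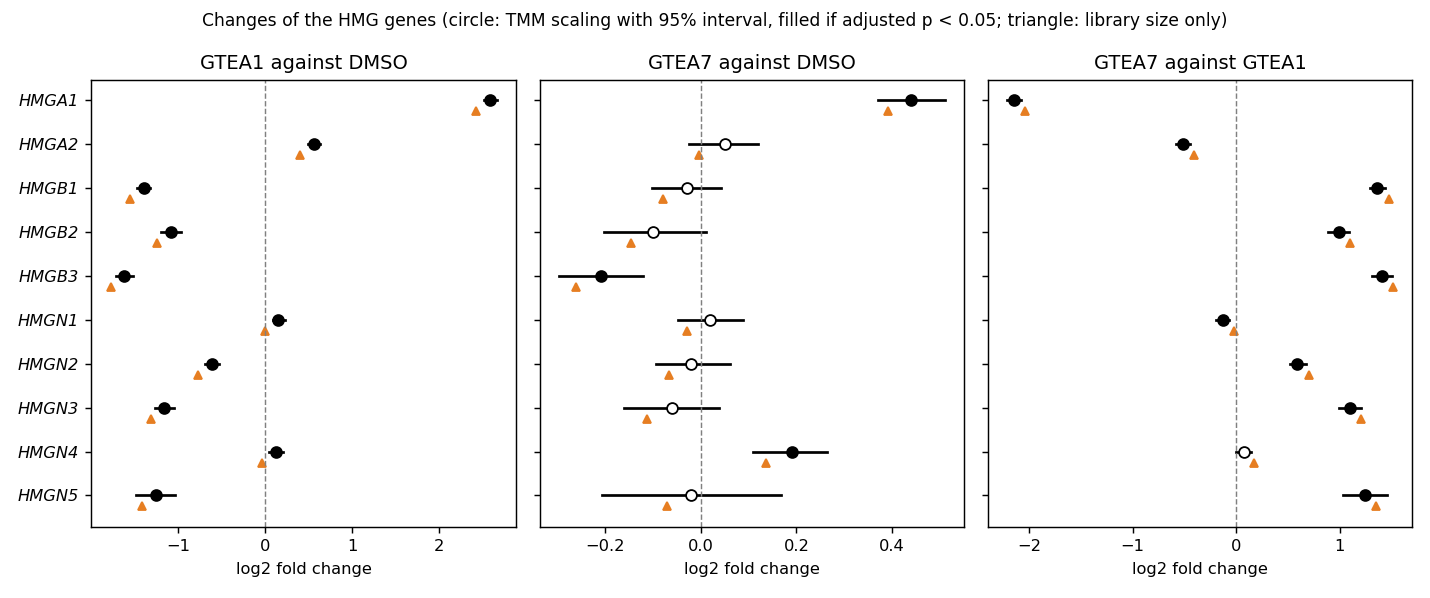
Log2 fold change of each HMG gene in the 3 comparisons (x axes differ in range); circles are values with TMM scaling and their 95% intervals, filled where the adjusted p was under 0.05, and triangles are values with library size only. HMGA1 lies at 2.58 with GTEA1 and 0.44 with GTEA7, and the triangles of HMGN1 and HMGN4 lie at or below 0 in the first panel.

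GTEA7 against GTEA1 compares the extracts directly, at doses that are not given. The DMSO libraries are not in this contrast, but they were in the same fit. Of the 10 genes 9 passed, 6 higher in GTEA7 and 3 lower, beside 72.7% of all genes (36.2% higher and 36.4% lower). The same 9 did not overlap between the extracts, as did 65.3% of all genes, and 5 differed by at least 2-fold, as did 19.8%. With library size only it was 7 higher and 2 lower, and over all genes 7653 higher and 5455 lower in place of 6510 and 6546. A fit of the GTEA1 and GTEA7 libraries alone called 12450 of 16858 genes and 9 of the 10 HMG genes. HMGA1 was 4.42-fold lower in GTEA7 than in GTEA1 (-2.14 ± 0.03, adjusted p = 1.8e-45), and HMGA2 was 1.43-fold lower (-0.51 ± 0.03, adjusted p = 3.3e-19). HMGB3 was 2.65-fold higher in GTEA7 (1.41 ± 0.05, adjusted p = 2.4e-25), HMGB1 2.57-fold (1.36 ± 0.04, adjusted p = 1.0e-34) and HMGB2 1.98-fold (0.99 ± 0.05, adjusted p = 5.7e-12). HMGN5, HMGN3 and HMGN2 were 2.36-fold, 2.14-fold and 1.51-fold higher in GTEA7 (adjusted p = 1.0e-14, 5.2e-24 and 3.9e-19). HMGN1 was lower in GTEA7 by a small margin (-0.13 ± 0.03, adjusted p = 2.1e-04), which was lost with library size only (-0.026, adjusted p = 0.47). HMGN4 did not pass (0.07 ± 0.04, adjusted p = 0.096, with a 95% interval of -0.005 to 0.139). It passed with library size only (0.175, adjusted p = 4.7e-05), without GTEA1 replicate 1 (0.085, adjusted p = 0.039) and without GTEA7 replicate 4 (0.095, adjusted p = 0.027).

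To set different genes beside each other, CPM was divided by length, either that of all exons of the gene or the median length of its protein-coding transcripts, both from GENCODE v29. HMGA1 came first by either length in every group. Per kilobase of all exons it was at 318 ± 9 CPM in DMSO (n = 3), 1907 ± 45 in GTEA1 and 432 ± 8.6 in GTEA7 (n = 4 each). Its share of the summed level of the 10 genes was 40.4% in DMSO, 85.8% in GTEA1 and 48.2% in GTEA7. Per kilobase of coding transcript these shares were 22.5%, 69.3% and 28.5%.

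The order of the others depended on the length used. Per kilobase of all exons, DMSO had HMGB2 (82.3 ± 5), HMGB1 (76.5 ± 0.97), HMGN2 (74.1 ± 2.1), HMGN4 (67.1 ± 0.77), HMGN1 (61.1 ± 1.3), HMGN3 (47.7 ± 1.6), HMGB3 (40.6 ± 2.2), HMGA2 (14.8 ± 0.79) and HMGN5 (4.24 ± 0.37) after HMGA1. Among these only HMGB1 and HMGN2 had ranges that overlapped between neighbours. Per kilobase of coding transcript HMGN1 came second, at 376 ± 8, and HMGA2 sixth, at 128 ± 6.8, since the exons of HMGA2 add up to 15403 bases and its median coding transcript to 1788. In GTEA1, HMGB2 moved from the second to the fifth place per kilobase of all exons and HMGB1 from the third to the sixth, at 38.8 ± 3 and 29.1 ± 1.8. In GTEA7, HMGB2, HMGN4, HMGB1 and HMGN2 held places 2 to 5, at 73.4 to 76.8, with ranges that overlapped between neighbours. HMGN5 was last in every group by either length.

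**Figure D3:**
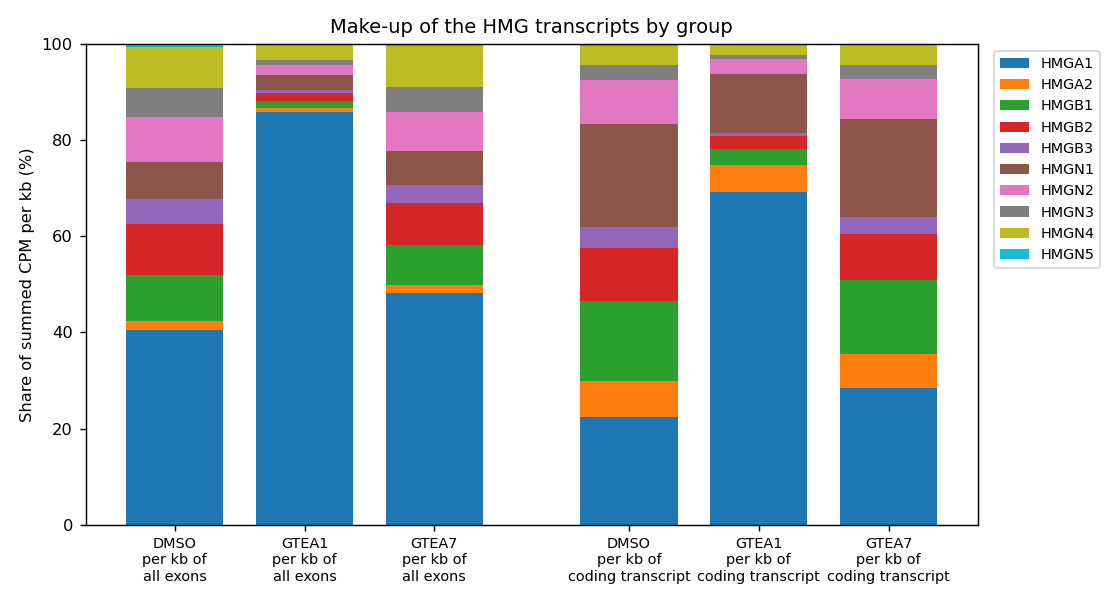
Share of each HMG gene (%) in the summed CPM per kilobase of the 10 genes, by group, with levels divided by the length of all exons (left) or of the median protein-coding transcript (right). HMGA1 takes 85.8% and 69.3% in GTEA1, beside 40.4% and 22.5% in DMSO.

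HMG genes have many processed pseudogenes, and reads may be split between near-identical copies. The table held 157 rows named as pseudogenes of the 10 genes, of which 95 had a count and 15 were tested. They held 10479 counts in all, beside 655579 for the genes themselves. Pseudogene rows took 6.79% to 8.63% of the reads of HMGB1 and its copies, 1.53% to 2.15% for HMGN1, 2.41% to 3.69% for HMGN2 and 0.146% to 0.342% for HMGA1, over all 11 libraries. For HMGB3 the share was 1.58% to 2.24% in DMSO, 5.65% to 7.71% in GTEA1 and 1.64% to 2.48% in GTEA7.

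Of 8 HMGA1 pseudogene rows 3 were tested. With GTEA1 HMGA1P3 rose by 2.36 ± 0.26 and HMGA1P2 by 1.92 ± 0.27 (adjusted p = 3.6e-11 and 1.0e-08). HMGA1P8 was at 2.11 ± 0.42, but it came through the low-count filter only by its GTEA1 libraries, which fixed its direction. Of 48 HMGB1 rows 5 were tested, and 4 fell, HMGB1P1 (-2.19 ± 0.24), HMGB1P5 (-1.42 ± 0.10), HMGB1P6 (-1.35 ± 0.10) and HMGB1P10 (-1.21 ± 0.24), and HMGB1P14 was at -0.16 ± 0.33. HMGN2P3 fell (-0.82 ± 0.18). Of all genes tested, 35.6% passed as higher with GTEA1 and 36.2% as lower. Neither HMGB3P4 (-0.07 ± 0.30) nor HMGB3P24 (-0.10 ± 0.28) passed, nor did any of the 4 HMGN1 rows. When the counts of each gene were added to those of its pseudogene rows, all calls of the 10 genes in the 3 comparisons stood, and HMGB3 was at -1.552 with GTEA1.

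**Figure D4:**
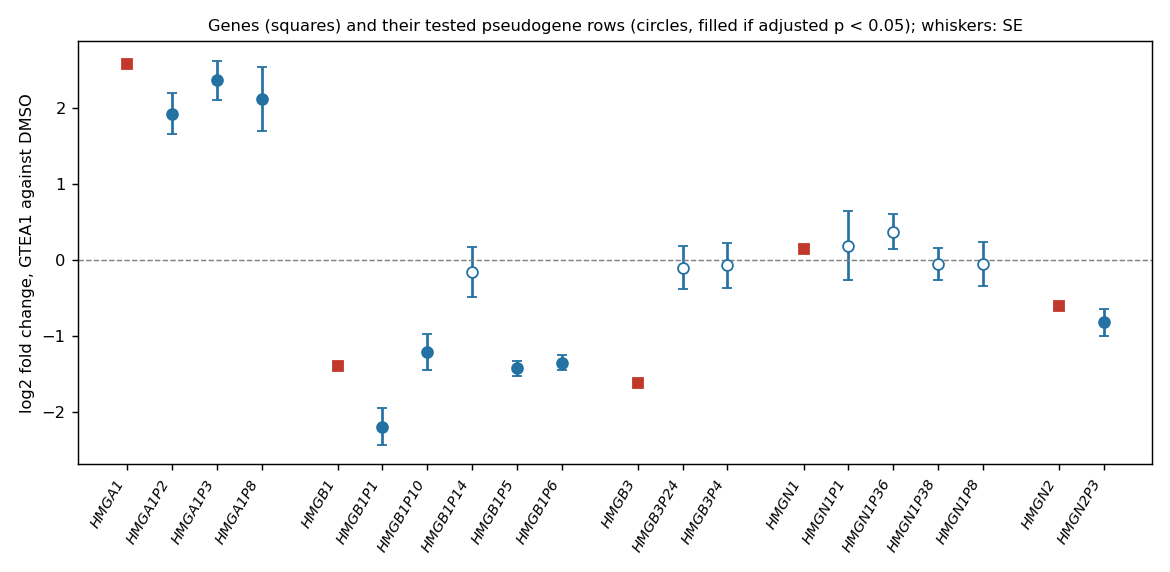
Log2 fold change of GTEA1 against DMSO for 5 genes (squares) and their 15 tested pseudogene rows (circles, filled where the adjusted p was under 0.05), with standard errors as whiskers. The HMGA1 rows lie between 1.92 and 2.36, near HMGA1 itself, and both HMGB3 rows lie near 0. The direction of HMGA1P8 was fixed by the low-count filter, which it passed only by its GTEA1 libraries.

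Other HMG-box proteins carry the same fold as the HMGB family. Of 21 listed, 17 were tested, and HMGB4, the testis member of the family, had 0 counts in all libraries. With GTEA1 5 rose and 11 fell, with a median of -0.22, while 35.6% of all genes tested passed as higher and 36.2% as lower. SSRP1, a subunit of the FACT histone chaperone (-0.36 ± 0.04), TFAM, which packages mitochondrial DNA (-0.81 ± 0.05), UBTF, a ribosomal RNA transcription factor (-0.75 ± 0.04), and SMARCE1, a subunit of the BAF remodeller (-0.32 ± 0.07), fell. These come first in the list, and TCF7L2, further down it, fell by more (-1.33 ± 0.04). Those that rose were TOX2 (0.99 ± 0.06), the repressor HBP1 (0.82 ± 0.07), HMGXB3 (0.65 ± 0.04), HMGXB4 (0.33 ± 0.04) and TOX4 (0.13 ± 0.04, but -0.02 and not past the threshold with library size only). With GTEA7 TCF7L1 (-0.39 ± 0.07), TCF7L2 (-0.15 ± 0.04) and HMG20B (-0.11 ± 0.04) fell and HMGXB3 rose (0.13 ± 0.04), and the calls of HMG20B and HMGXB3 were lost with DESeq2 size factors (adjusted p = 0.071) and library size only (adjusted p = 0.23) respectively. This list gave 3 higher and 2 lower with DESeq2 size factors, and 0 higher and 7 lower with library size only. Among all genes tested, 22.5% passed with GTEA7 under TMM scaling.

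Linker histones occupy the nucleosome sites for which HMG proteins compete. H1-2 rose with GTEA1 from 4.79 ± 0.49 to 13.5 ± 1.5 CPM (1.49 ± 0.11, adjusted p = 4.9e-17). H1-10 was at 0.17 ± 0.07 with GTEA1 (adjusted p = 0.024, but 0.02 and adjusted p = 0.85 with library size only) and at -0.22 ± 0.07 with GTEA7 (adjusted p = 0.018). H1-1, H1-3, H1-4 and H1-5, like H1-2 replication-dependent histones whose transcripts mostly lack a poly(A) tail, had 1 to 43 counts in total in these poly(A)-selected libraries. The values of H1-2 thus cover only the transcripts that this selection kept.

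LIN28 proteins block the maturation of let-7 microRNAs, which repress HMGA2. LIN28B had 36 counts over all libraries and was not tested, and LIN28A was at 0.740 ± 0.34 CPM in DMSO and 0.804 ± 0.072 in GTEA1 (0.11 ± 0.34, adjusted p = 0.77). Of the 10 tested genes of this list 5 rose and 2 fell with GTEA1, with a median of 0.15 (-0.01 with library size only). Beside this, 71.8% of all genes tested passed with GTEA1, 35.6% higher and 36.2% lower. ARID3B, a DNA-binding protein (1.45 ± 0.07), TUT7 (0.98 ± 0.04) and TUT4 (0.19 ± 0.04), uridylyltransferases that act on precursor let-7, IGF2BP2, an mRNA-binding protein (0.52 ± 0.04), and DICER1 (0.42 ± 0.04) rose. With library size only 4 rose and 3 fell, since TUT4 was at 0.03 and did not pass and MYC passed as lower (-0.22, edgeR adjusted p = 3.9e-07). With TMM scaling MYC was at -0.06 ± 0.04 with GTEA1 and did not pass (adjusted p = 0.12). IGF2BP3 (-0.59 ± 0.04) and the exonuclease DIS3L2 (-0.37 ± 0.06) fell, and IGF2BP1 was at -0.26 ± 0.26 (adjusted p = 0.38). With GTEA7 MYC rose (0.36 ± 0.03, adjusted p = 1.1e-11) and ARID3B fell (-0.31 ± 0.09, adjusted p = 0.0066), and the other 8 did not pass. The share of all genes that passed with GTEA7 was 22.5%.

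Receptors and partners of HMGB1 were few in these cells: 7 of 12 were tested, and TLR2, TLR4 and CXCL12 had 0 counts. With GTEA1 4 fell, namely the chemokine receptor CXCR4 (-4.51 ± 0.21), the surface protein CD24 (-1.24 ± 0.06), the adaptor MYD88 (-1.15 ± 0.08) and the nuclear exporter XPO1 (-0.16 ± 0.03). CXCR4 was at 0.311 ± 0.058 CPM in GTEA1, so the size of its fold change rests on few reads. Among all genes tested 36.2% passed as lower and 35.6% as higher. AGER, which encodes the receptor RAGE, rose from 3.95 ± 0.29 to 5.58 ± 1 CPM (0.51 ± 0.14, adjusted p = 0.0012). THBD (0.466 ± 0.17 CPM in DMSO and 1.68 ± 0.49 in GTEA1) and HAVCR2 (0.114 ± 0.12 and 1.00 ± 0.3) also passed, but they came through the low-count filter only by their GTEA1 libraries, which fixed their direction. With GTEA7 CXCR4 alone passed, going from 7.30 ± 0.12 to 3.37 ± 0.39 CPM (-1.12 ± 0.13, adjusted p = 1.0e-09), beside 22.5% of all genes.

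Proliferation markers were also lower with GTEA1. Their 10 genes summed to 2149.9 to 2226 CPM in DMSO, 586 to 693 in GTEA1 and 1878 to 2079 in GTEA7. All 10 fell with GTEA1, with a median of -1.72, among them MKI67 (-2.35 ± 0.06), the topoisomerase TOP2A (-1.70 ± 0.05), the kinase CDK1 (-1.37 ± 0.05) and cyclin B1, CCNB1 (-1.75 ± 0.05). The share of all genes tested that passed as lower was 36.2%. With GTEA7 MKI67 (-0.22 ± 0.06), TOP2A (-0.22 ± 0.05) and STMN1 (-0.19 ± 0.04) fell and the other 7 did not pass, while 10.4% of all genes passed as lower. The part of cell division in the changes of the HMGB and HMGN genes was not tested. Of 16 nucleosome remodelling and histone chaperone genes, 13 fell and 1, ANP32B (0.26 ± 0.04), rose with GTEA1, with a median of -0.45. Beside them, 36.2% of all genes tested passed as lower and 35.6% as higher. SUPT16H, the partner of SSRP1 in FACT (-0.34 ± 0.03), NAP1L1 (-0.22 ± 0.04), NAP1L4 (-0.46 ± 0.04) and ASF1A (-0.34 ± 0.06), which hand histones to DNA, fell. They are named because they come first in the list, and NASP, further down it, fell by more (-1.27 ± 0.04). SET and NPM1 did not pass (-0.03 ± 0.03 and -0.04 ± 0.03), but did with library size only (-0.19 each). With GTEA7 ANP32B and SET (0.16 each), NPM1 (0.11) and SUPT16H (0.10) rose and NASP fell (-0.16), and the calls of NPM1 and SUPT16H were lost with library size only (adjusted p = 0.20 and 0.32). The shares of all genes with GTEA7 were 12.0% higher and 10.4% lower.

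**Figure D5:**
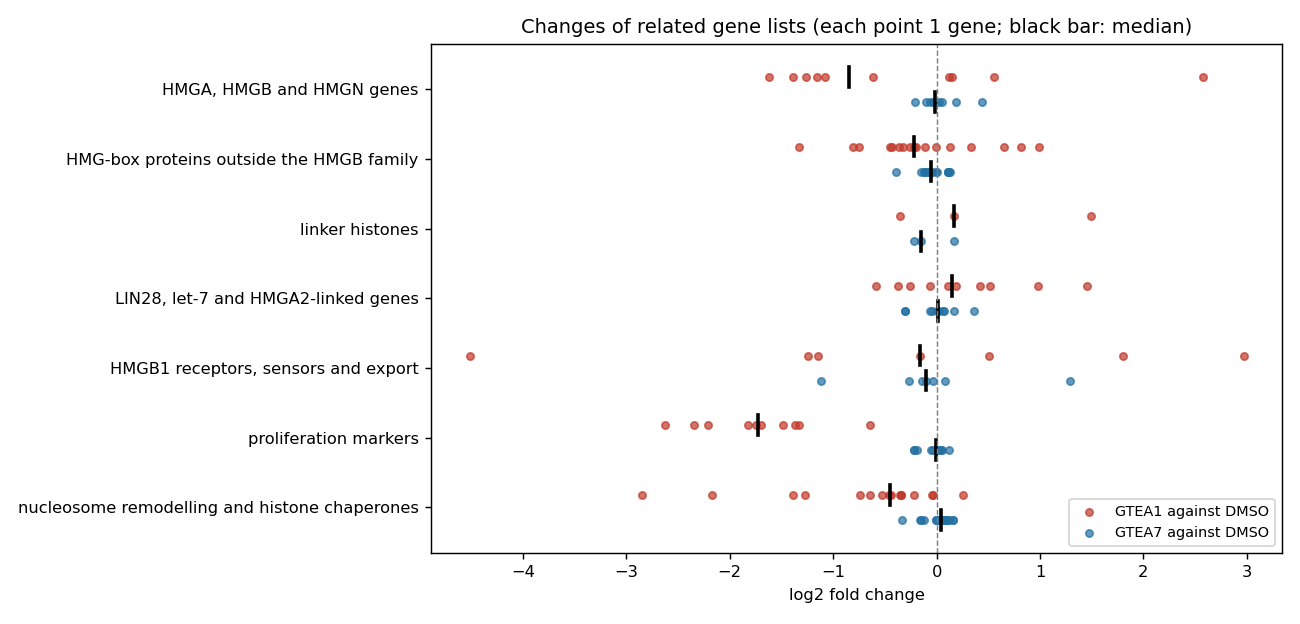
Log2 fold change against DMSO of the HMG genes and of 6 lists of related genes, with GTEA1 in red and GTEA7 in blue; each point is 1 tested gene and the black bar the median. The proliferation markers lie furthest to the left with GTEA1, at a median of -1.72, and the HMG genes spread from -1.62 to 2.58.

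The genes whose pattern over the 11 libraries was closest to that of each HMG gene were found by the root mean square difference of centred log2 values, among 11118 genes with a mean of at least 5 CPM. For HMGA1 they were CYP4F11, a cytochrome P450 (difference 0.054), and CTSL, the lysosomal protease cathepsin L (0.061). For HMGA2 they were GORASP2 (0.032) and CDS1 (0.035). HMGB1 was closest to H2AZ2, which encodes a histone H2A.Z variant (0.030), and ZBED2 (0.045), HMGB2 to the replication fork protein gene TIMELESS (0.055) and the cytokinesis factor ECT2 (0.057), and HMGB3 to the Polycomb protein gene CBX2 (0.068) and the mitotic kinase NEK2 (0.076). HMGN1 was closest to PPP2R5C (0.026) and CAMSAP2 (0.030), HMGN2 to the histone demethylase gene KDM1A (0.042) and HNRNPA0 (0.046), and HMGN3 to the replication factor gene RFC5 (0.049) and ZNF518B (0.059). For HMGN4 the closest were ADSS2 (0.015) and ACP1 (0.024), and for HMGN5 ZNF559 (0.069) and PTTG1 (0.080). The difference is not scaled by how much a gene varied, so genes that moved little give small values. Over the 11 libraries the SD of the log2 values was 0.08 for HMGN4 and 1.19 for HMGA1. The profiles share the contrast of GTEA1 with the other groups, so closeness describes these 11 libraries only.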

How the data were processed

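Polyadenylated RNA of HCT116 cells was sequenced in 11 libraries, all labelled batch 1, and grouped by their titles. The authors deposited whole-number read counts, 1 row a gene. Tools named in the submitters' processing notes are HTSeq 0.5.4, DESeq 1.10.1, STAR, GATK, SAMtools 0.1.18 and Picard, with no roles. The build, the annotation and the strandedness were not given in the sources used here. No 2 libraries were identical. Symbols were matched to 60370 of 60624 Ensembl IDs, and the other 840 rows have IDs without a symbol. Where IDs shared a symbol, the one with most counts took it, and the other 1195 rows stayed in the counts under their IDs.

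Genes were filtered with filterByExpr, scaled with TMM, and tested in 1 model of all 11 libraries with the quasi-likelihood F test of edgeR 4.0.16 (robust, R 4.3.3), with Benjamini-Hochberg adjustment. Each standard error is the log2 fold change over the square root of its F, and 95% intervals from a normal approximation. Alternatives were DESeq2 size factors, library size only, no low-count filter, at least 1 CPM in at least 3 libraries, a replicate block, only the compared groups, limma-voom 3.58.1, the Wald test of DESeq2 1.42.0, counts summed with pseudogene rows, and leaving out each library. Other scalings of the gene lists were added after seeing the data. The genes and lists were chosen with earlier results of these data known. Named genes are the 10 HMG genes, the first 4 tested genes of each list, those of any direction counting 5 or fewer, and the 2 nearest patterns per gene. A result for a list gene that the rule would name is not reported here. Pseudogene rows and antisense genes were added after their values were seen.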

Additional observations from a re-analysis of the deposited data

Results flagged for a closer look

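HMGB3 in GTEA1 replicate 1 stood apart from its group: 58.9 CPM beside 50.0 to 51.1 in the other 3 libraries, a gap of 0.870 of the group's range, above Dixon's 95% critical value. It was the only one of 20 groups of 4 libraries (10 genes, 2 extracts) to do so, and chance alone flags about 1 in 20. GTEA1 replicate 1 was also the highest of its group for 8 of the 10 genes and the lowest for HMGA1. Without it, the log2 fold change of HMGB3 with GTEA1 was -1.672.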

How the results depend on the processing

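Of the counts of genes and of HMG genes that passed, all 98 alternative values stayed within 1.5 times the main ones. Of 490 alternative values of single HMG genes, 476 kept direction and call. With library size only, HMGN1 and HMGN4 turned to -0.004 and -0.039 with GTEA1, and HMGA2 and HMGN1 to -0.003 and -0.030 with GTEA7. Other reversals were in genes that had not passed with GTEA7: HMGB1 at 0.003 without GTEA7 replicate 4 (-0.045 to 0.003 over all left-out libraries), HMGN2 at 0.010 without DMSO replicate 2 and 0.025 without GTEA7 replicate 4 (-0.045 to 0.025), and HMGN5 at 0.052 without DMSO replicate 1 (-0.081 to 0.052). With the replicate number as a block HMGN2 was at 0.002 with GTEA7. The block gave 12725, 4087 and 13016 genes in the 3 comparisons (GTEA1 and GTEA7 against DMSO, and GTEA7 against GTEA1) and the same 10, 3 and 9 HMG genes called. Same-numbered libraries deviated together with correlations of -0.10 to 0.09 over 10 pairs, and 1 of 11 libraries correlated best with its own number, so the numbers were not taken to pair the libraries. Leaving out each library gave 12433 to 12699, 2973 to 3971 and 12526 to 12867 genes, and 10, 3 and 9 to 10 HMG genes. The cause of these shifts was not tested. Depth limits HMGN5, with 54 to 192 reads per library.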
